A study of Mus musculus with 14 samples.

Results

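The 9 genes described here, Tat, Hpd, Hgd, Fah, Tdo2, Hal, Sds, Gnmt and Got1, encode liver enzymes that break down amino acids. They were taken by symbol from the 25212 rows of the liver count table. All 9 were present once, and all 9 passed the filter on low counts that left 14252 genes for testing. Amino acids that are not needed for protein synthesis are degraded mainly in hepatocytes, where the amino group is passed to the urea cycle and the carbon skeleton is burned, stored as fat or turned into glucose. Tat, Hpd, Hgd and Fah act in this order in tyrosine degradation. Tdo2 opens the tryptophan ring, Hal removes ammonia from histidine, Sds converts serine to pyruvate, Gnmt methylates glycine at the expense of S-adenosylmethionine, and Got1 moves the amino group between aspartate and glutamate in the cytosol. Transcription of Tat, Tdo2 and Sds in liver is a classical response to glucocorticoids, and Tat and Sds also respond to glucagon.

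Liver RNA came from 14 male C57BL/6 mice with diet-induced obesity (DIO), and the 3 groups shared the strain, the sex and the high fat diet (HFD). The diet began at 6 weeks of age, and 12 weeks of it preceded surgery. The 5 DIO mice were not operated on, 4 mice had the gallbladder joined to the ileum with ligation of the common bile duct (GB-IL), and 5 mice had Roux-en-Y gastric bypass (RYGB). By the labels all livers were taken 8 weeks after the operation or, in DIO mice, after the same time without one, whereas a legend of the study gives an earlier time for part of its liver expression data. Anaesthesia and operation as such cannot be told apart from the rerouting of bile or food, since no sham-operated liver is among these 14. Each liver gave 1 library, and that each came from a separate mouse rests on the study's description.

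Total counts ranged from 18440676 to 21473005 in DIO, from 19231679 to 26131278 in GB-IL and from 18223135 to 28656631 in RYGB livers. The hepatocyte marker list (12 of 12 genes detected) took 14.1 to 16.2% of counts in DIO, 11.3 to 15.5% in GB-IL and 13.98 to 18.3% in RYGB livers, so the tissue label held in all 14. Some livers stood apart. GB-IL 1 carried 1233 CPM (counts divided by the total count and multiplied by 1e6) summed over 5 pancreas markers (5 of 5 detected in the group), against at most 2.40 CPM in every other liver. The other marker sums of this paragraph use the same CPM. CPM values of single genes, given below, are counts divided by the TMM-scaled library size instead, and multiplied by 1e6. The sum of 6 pericentral hepatocyte markers was 3065 CPM in GB-IL 1, 1732 CPM in GB-IL 2 and 2546 CPM in RYGB 5, against at least 8731 CPM elsewhere. A list of 6 neutrophil markers, of which 1 was at 0 in every DIO liver, summed to 48.3 to 258 CPM in GB-IL 1, 2 and 3 and to 83.7 CPM in RYGB 5, against at most 11.6 CPM in the other livers. On the first principal component of all tested genes (48.5% of variance), GB-IL 4, at 35.3, lay within the DIO range of 21.9 to 45.7, whereas GB-IL 1, 2 and 3 lay at -134, -106 and -20.1. The results below are therefore given liver by liver, and those that rest on GB-IL 1 or GB-IL 4 are also given without that liver.

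In these 14 livers the levels of Tat and Got1 varied together, and so did those of Hpd and Fah, and for that reason the 250 bases before the start site of these 4 genes are shown. The windows are those of RefSeq on GRCm38.p6, which held 8 of the 9 genes, Sds being the one without an entry. They are written 5′ to 3′ on the strand of the gene, with capitals marking the motif CCAAT or, for the opposite strand, ATTGG.
Tat chr8:109990186-109990435 (+ strand): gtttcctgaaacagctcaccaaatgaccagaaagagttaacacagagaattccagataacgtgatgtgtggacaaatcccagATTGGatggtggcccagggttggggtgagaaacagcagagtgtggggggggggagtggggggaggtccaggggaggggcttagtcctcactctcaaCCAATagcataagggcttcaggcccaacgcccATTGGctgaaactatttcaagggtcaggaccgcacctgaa
Got1 chr19:43524606-43524855 (- strand): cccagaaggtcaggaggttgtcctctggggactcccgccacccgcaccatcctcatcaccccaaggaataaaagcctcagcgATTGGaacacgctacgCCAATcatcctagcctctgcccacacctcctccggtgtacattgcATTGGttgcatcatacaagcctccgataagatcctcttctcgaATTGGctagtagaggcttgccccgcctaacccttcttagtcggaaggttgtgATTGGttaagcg
Hpd chr5:123182724-123182973 (- strand): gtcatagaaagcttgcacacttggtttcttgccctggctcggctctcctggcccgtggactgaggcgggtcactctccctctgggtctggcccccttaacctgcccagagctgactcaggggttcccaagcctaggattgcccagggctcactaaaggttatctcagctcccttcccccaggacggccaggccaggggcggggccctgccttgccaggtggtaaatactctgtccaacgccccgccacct
Fah chr7:84605943-84606192 (- strand): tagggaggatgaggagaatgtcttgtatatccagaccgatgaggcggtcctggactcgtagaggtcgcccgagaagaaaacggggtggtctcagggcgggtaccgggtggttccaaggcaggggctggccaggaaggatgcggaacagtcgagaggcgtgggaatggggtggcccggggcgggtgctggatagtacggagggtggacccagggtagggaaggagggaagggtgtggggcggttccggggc
The Tat window held 3 such matches and the Got1 window 5, on both strands, whereas the Hpd and Fah windows held 0. Among the remaining genes with a window, Hgd had 2 matches, and Tdo2, Hal and Gnmt had 1 each. Of all 32851 windows of the same length, 33.8% held at least 1 match, 2.79% held 3 or more and 0.213% held 5 or more. TATAAA was found in the windows of Hgd, Tdo2 and Hal (12.4% of all windows, both strands), and TTGCNNAA in those of Hgd and Hal (9.56%). No match to TGACG (17.8% of all windows) or TGTTCT (16.1%) was found in any of the 8 windows, which says only that these letters are not there. The motifs can share bases with one another and were counted separately, and a match describes the sequence, not a bound site. Whether the matches bear on which genes varied together was not tested. By GENCODE, 4 bases of the Hpd window, 3 of the Gnmt window and all 250 of the Tdo2 window are exonic, and the Fah window lies inside an intron of the longer gene model.

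By GENCODE M21 on GRCm38, Tat lies at chr8:109990437-109999803 and Hpd at chr5:123171807-123182727. Hgd spans chr16:37580153-37632020 and Fah chr7:84585159-84606722. Tdo2 was placed at chr3:81957090-81976202, Hal at chr10:93488768-93519304, Gnmt at chr17:46725664-46729168 and Got1 at chr19:43499752-43524605. Sds, at chr5:120476526-120483932, is the one gene whose exons overlap other genes: 360 bp are shared with Plbd2 and 141 bp with the antisense transcript Gm15690, both on the opposite strand. Since the strand setting of the counting is not given, reads in these stretches cannot be assigned between Sds and its partners, and 21.2% of the 50-base words of Sds also occur in them. Of the 50-base words of Hal, 0.574% occur in other genes, and none of those of the remaining 7 genes do.

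Compared per length of exon, the 9 enzymes covered a wide range of levels in DIO livers. Hpd had the highest mean level, 1360 ± 368 CPM per kb (SD, n = 5), followed by Gnmt at 1202 ± 308 and Tat at 582 ± 305 CPM per kb. Tdo2 followed at 470 ± 146, Fah at 364 ± 76.0 and Hgd at 282 ± 43.8 CPM per kb. The lowest were Got1 at 173 ± 78.1, Sds at 131 ± 68.2 and Hal at 60.2 ± 7.003 CPM per kb. The ranges of neighbours in this order overlapped in DIO livers except for Sds and Hal, whose lowest and highest levels were 67.4 and 66.3 CPM per kb. By group mean per length, Hpd ranked 46 and Hal 744 among 14115 genes in DIO livers. Together the 9 genes took 0.763 to 1.26% of counts in DIO, 0.876 to 2.26% in GB-IL and 0.653 to 0.959% in RYGB livers.

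Tat (tyrosine aminotransferase) starts tyrosine degradation by removing the amino group and is the step that hormones control. Its level was 1446, 539, 852, 1777 and 2385 CPM in DIO 1 to 5. In GB-IL 1 to 4 it was 11068, 4269, 2306 and 1325 CPM. In RYGB 1 to 5 it was 980, 1478, 1977, 1316 and 1767 CPM. GB-IL 1 and 2 were above every DIO liver, GB-IL 3 and 4 lay within the DIO range, and all 5 RYGB livers lay within it too. For GB-IL against DIO its log2 fold change was 1.76 ± 0.54 (SE), with a 95% interval of 0.61 to 2.91 and an adjusted p of 0.0829 by edgeR's quasi-likelihood test. Against RYGB it was 1.66 ± 0.54 (adjusted p = 0.123), with 0.80 without GB-IL 1 (adjusted p = 0.377) and 1.96 without GB-IL 4 (adjusted p = 0.0168). For RYGB against DIO it was 0.10 ± 0.50 (adjusted p = 0.968). The spread on the log2 scale was 0.86 in DIO, 1.31 in GB-IL and 0.39 in RYGB livers (SD), against medians over all tested genes of 0.29, 0.57 and 0.30. Without GB-IL 4 the log2 fold change against DIO was 2.06 (adjusted p = 0.00989), and without GB-IL 1 it was 0.91 (adjusted p = 0.375), so that the call depended on which of these livers was in the fit. The part of the pancreas, pericentral and neutrophil markers that stood apart in GB-IL 1 or 2 was not tested.

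**Figure D1:**
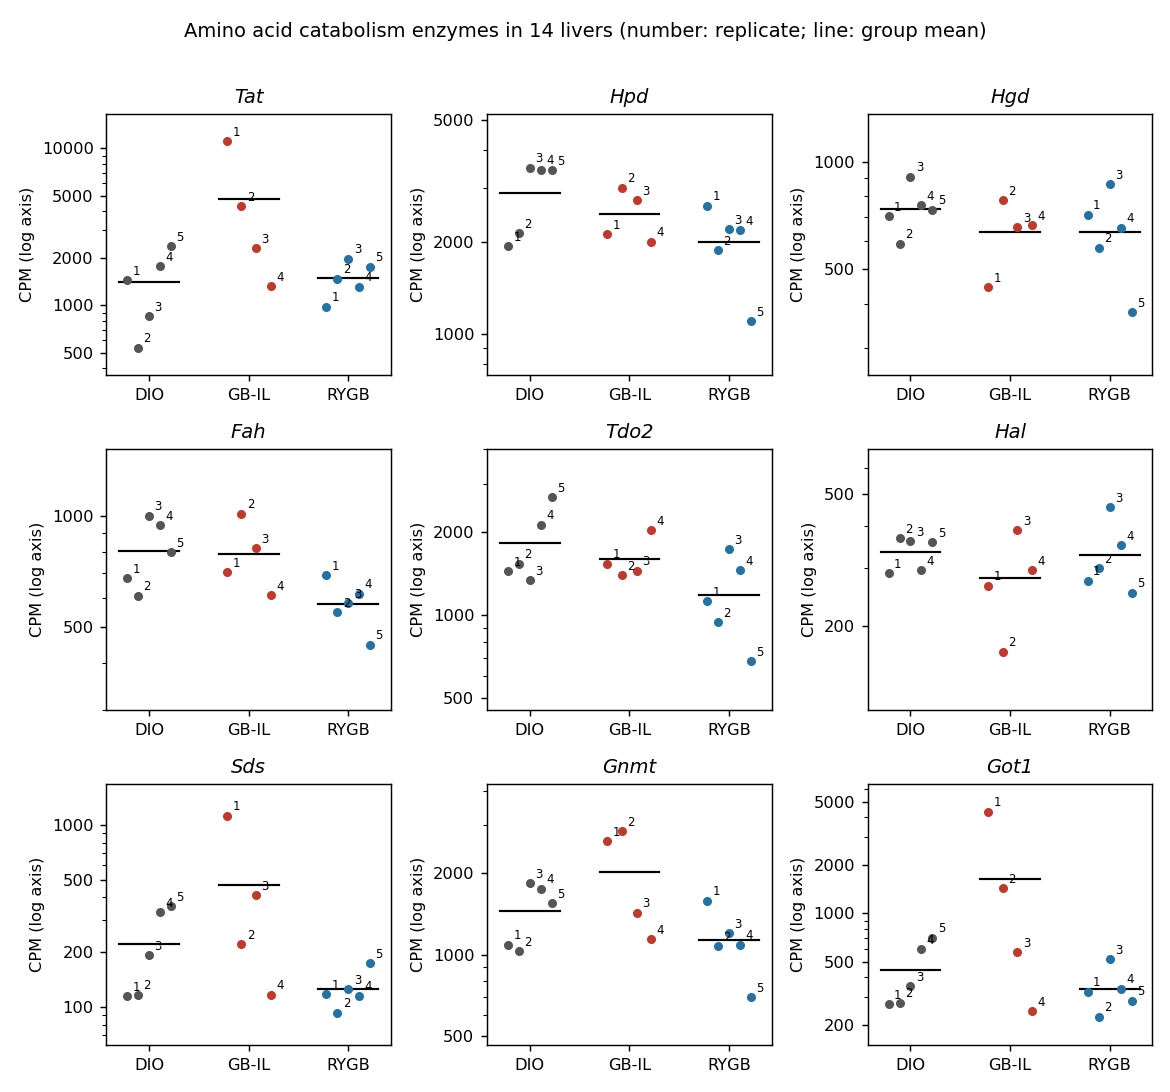
Level of each of the 9 enzymes in each liver, in CPM on a log axis, with 1 panel per gene and the 3 groups side by side; numbers give the replicate and lines the group mean. GB-IL 1 and 2 stand above all DIO livers for Tat, Gnmt and Got1, whereas the groups overlap for every gene.

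Among Hpd, Hgd and Fah, which act after Tat, only Fah in GB-IL 2 was above its DIO range in any GB-IL liver. Hpd (4-hydroxyphenylpyruvate dioxygenase), which acts on the product of Tat, was at 1938, 2142, 3506, 3447 and 3440 CPM in DIO livers. It was at 2128, 3015, 2739 and 2009 CPM in GB-IL livers and at 2631, 1885, 2211, 2187 and 1104 CPM in RYGB livers. DIO 3, 4 and 5 were above all livers of both operated groups, while DIO 1 and 2 were among them. Hpd had a log2 fold change of -0.23 ± 0.28 for GB-IL and -0.53 ± 0.27 for RYGB against DIO (adjusted p = 0.624 and 0.597, edgeR). Their 95% intervals ran from -0.83 to 0.38 and from -1.10 to 0.041.

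Hgd (homogentisate dioxygenase), the ring-opening step, was at 703, 589, 908, 754 and 734 CPM in DIO livers. GB-IL livers had 446, 779, 654 and 665 CPM, and RYGB livers 711, 574, 866, 654 and 379 CPM. Outside the DIO range lay only GB-IL 1 and, in the RYGB group, RYGB 2 and 5, all of them below it. Both log2 fold changes against DIO were -0.21 (SE 0.25 for GB-IL and 0.23 for RYGB; adjusted p = 0.592 and 0.831, edgeR), and the difference between the operations was -0.0012 ± 0.25, with a 95% interval of -0.53 to 0.52. Fah (fumarylacetoacetase), the last step, was at 679, 609, 1003, 945 and 798 CPM in DIO and at 706, 1014, 820 and 610 CPM in GB-IL livers. In RYGB livers it was at 693, 549, 582, 617 and 449 CPM. RYGB 2, 3 and 5 were below the lowest DIO liver, and RYGB 1 and 4 lay within the DIO range. For Fah the log2 fold change of RYGB against DIO was -0.48 ± 0.21 (unadjusted p = 0.0358, adjusted p = 0.547, edgeR), and for GB-IL against DIO it was -0.035 ± 0.22 (adjusted p = 0.935). The latter had a 95% interval of -0.51 to 0.44.

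The ratio of Tat to Hpd per length put the first step beside the one that follows it within each liver. It was 0.660, 0.223, 0.215, 0.456 and 0.613 in DIO 1 to 5. The GB-IL livers had 4.60, 1.25, 0.745 and 0.584, and the RYGB livers 0.330, 0.694, 0.791, 0.532 and 1.42. The ratio of 3 of 4 GB-IL and 3 of 5 RYGB livers was above that of the highest DIO liver. For Tat to Hgd these counts were 3 of 4 and 1 of 5, and for Tat to Fah 2 of 4 and 2 of 5. In GB-IL 1 and 2 Tat was above and Hpd within its DIO range, whereas in RYGB 5 Hpd was below and Tat within its DIO range.

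Tdo2 (tryptophan 2,3-dioxygenase), the first enzyme of the kynurenine route in liver, was at 1445, 1536, 1338, 2127 and 2677 CPM in DIO livers. It was at 1536, 1395, 1450 and 2035 CPM in GB-IL and at 1125, 942, 1738, 1455 and 680 CPM in RYGB livers. RYGB 1, 2 and 5 were below every DIO liver, and all 4 GB-IL livers lay within the DIO range. Tdo2 had a log2 fold change of -0.62 ± 0.28 for RYGB (95% interval -1.21 to -0.025, unadjusted p = 0.0423, adjusted p = 0.555, edgeR) and -0.19 ± 0.29 for GB-IL against DIO (adjusted p = 0.707). Hal (histidine ammonia lyase) was at 289, 368, 360, 294 and 358 CPM in DIO livers, the narrowest spread of the 9 genes in that group (SD 0.17 on the log2 scale). GB-IL livers had 264, 167, 389 and 294 CPM and RYGB livers 274, 299, 457, 351 and 252 CPM. GB-IL 2 had the lowest and RYGB 3 the highest level of Hal. Its log2 fold change was -0.26 ± 0.24 for GB-IL and -0.031 ± 0.23 for RYGB against DIO (adjusted p = 0.506 and 0.978, edgeR), with 95% intervals of -0.78 to 0.26 and -0.52 to 0.46.

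Sds (serine dehydratase), a gluconeogenic enzyme, was at 114, 117, 193, 331 and 356 CPM in DIO livers and at 1124, 220, 412 and 117 CPM in GB-IL livers. RYGB livers had 117, 92.8, 125, 116 and 174 CPM. GB-IL 1 and 3 were above every DIO liver, and GB-IL 1, 2 and 3 were above every RYGB liver. Sds differed by a log2 fold change of 1.08 ± 0.53 for GB-IL against DIO (adjusted p = 0.235, edgeR), -0.83 ± 0.50 for RYGB against DIO (adjusted p = 0.668) and 1.91 ± 0.54 for GB-IL against RYGB (adjusted p = 0.0998). Without GB-IL 1 the difference of GB-IL from DIO was 0.15 (adjusted p = 0.883), and without GB-IL 4 it was 1.39 (adjusted p = 0.0453). Against RYGB these values were 0.98 (adjusted p = 0.290) and 2.22 (adjusted p = 0.00964). Plbd2, whose reads can be mixed with those of Sds, had a log2 fold change of 0.72 ± 0.25 for GB-IL against DIO (adjusted p = 0.123).

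Gnmt (glycine N-methyltransferase), which sets the ratio of S-adenosylmethionine to its demethylated product, was at 1089, 1031, 1832, 1751 and 1546 CPM in DIO livers. It was at 2619, 2844, 1425 and 1141 CPM in GB-IL and at 1582, 1073, 1201, 1089 and 698 CPM in RYGB livers. GB-IL 1 and 2 were above every DIO and every RYGB liver, and RYGB 5 was below every other liver. Gnmt differed by a log2 fold change of 0.47 ± 0.32 for GB-IL against DIO (adjusted p = 0.361, edgeR), -0.36 ± 0.30 for RYGB against DIO (adjusted p = 0.763) and 0.83 ± 0.32 for GB-IL against RYGB (adjusted p = 0.162). Without GB-IL 4 the last of these was 1.02 (adjusted p = 0.0308). It was 0.68 without GB-IL 1 (adjusted p = 0.331) and 0.60 without GB-IL 2 (adjusted p = 0.424, edgeR).

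Got1 (cytosolic aspartate aminotransferase) had the widest span of the 9 genes within the GB-IL group. DIO livers had 271, 277, 351, 596 and 704 CPM. In GB-IL livers it was at 4339, 1442, 573 and 245 CPM, and in RYGB livers at 323, 225, 518, 338 and 285 CPM. GB-IL 1 and 2 were above every DIO and RYGB liver, GB-IL 4 was below every DIO liver, and the highest GB-IL liver had 17.7 times the level of the lowest. The log2 fold change was 1.91 ± 0.61 for GB-IL against DIO (95% interval 0.60 to 3.21, adjusted p = 0.0934, edgeR), 2.29 ± 0.62 for GB-IL against RYGB (adjusted p = 0.0943) and -0.38 ± 0.57 for RYGB against DIO (adjusted p = 0.884). Without GB-IL 1 the difference of GB-IL from DIO was 0.78 (adjusted p = 0.473), and without GB-IL 4 it was 2.26 (adjusted p = 0.00793). Against RYGB the same fits gave 1.16 (adjusted p = 0.279) and 2.64 (adjusted p = 0.00681). Fewer cells of a type and less RNA per cell cannot be told apart in these bulk livers, for this gene or any other.

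In the comparison of GB-IL with DIO, edgeR's quasi-likelihood test called 0 of the 9 enzymes at an adjusted p under 0.05, where 3.26% of all tested genes were called. At an unadjusted p under 0.05 there were 2, Tat and Got1, both higher, against 23.1% of all genes, a share near that background. DESeq2 called 2 of the 9, edgeR's exact test 2 and limma voom with sample weights 0. How many of all genes these tools called is not given here, so these counts lack a background share. None of the 9 separated the groups without overlap (4.17% of all genes did). The median log2 fold change of the 9 was -0.035, against 0.039 for all tested genes, with 4 above and 5 below 0. In the fit without GB-IL 4, 3 of the 9 were called, Tat, Got1 and Sds, and 3572 of 14492 genes were called in all. The fit without GB-IL 1 called 0 of the 9.

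Comparing RYGB with DIO, 0 of the 9 were called, as for all genes (0%, smallest adjusted p 0.218). The unadjusted test passed Fah and Tdo2, both lower, where 8.71% of all genes passed. DESeq2 and the exact test called 0 of the 9, and limma voom with sample weights called 4 lower, Hpd, Fah, Tdo2 and Sds, with adjusted p-values of 0.0441, 0.0297, 0.049998 and 0.0230. That fit called 1690 genes over the whole table. None of the 9 was without overlap between these groups, against 3.53% of all genes. The log2 fold change was below 0 for 8 of the 9, Tat being the exception, and its median was -0.38, against 0.012 for all tested genes.

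Between the operations, GB-IL against RYGB, 0 of the 9 were called (0% of all genes, smallest adjusted p 0.0552). Tat, Got1, Sds and Gnmt passed the unadjusted test, all higher in GB-IL, where 22.1% of all genes passed. DESeq2 called 3, the exact test 3 and limma voom with sample weights 0. The share of all genes that these tools called is not given here, so their counts lack a background. No enzyme separated the groups without overlap (2.84% of all genes did). Above 0 lay 7 of the 9 log2 fold changes, with a median of 0.45 against 0.034 for all tested genes. In the fit without GB-IL 4 the same 4 genes, Tat, Got1, Sds and Gnmt, were called, and 3120 of 14492 genes were called in all. The fit without GB-IL 1 called 0 of the 9. Each group enters 2 of the 3 comparisons, so these counts are not independent of each other.

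**Figure D2:**
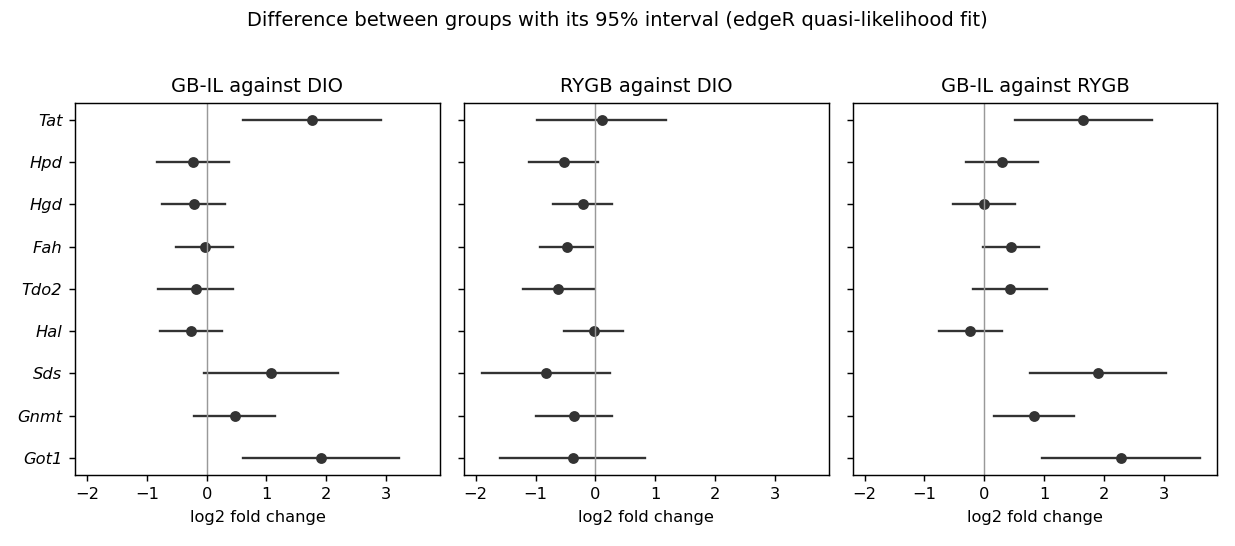
Log2 fold change of each enzyme (points) with its 95% interval (lines) in the 3 comparisons, from edgeR's quasi-likelihood fit of all 14 livers. The intervals of Tat and Got1 against DIO run from 0.61 to 2.91 and from 0.60 to 3.21 in GB-IL, and all 9 differences have an adjusted p above 0.05 in each panel.

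The levels of some enzymes varied together across the 14 livers. Tat and Got1 had a Pearson correlation of log2 CPM of 0.892, Sds and Got1 of 0.861 and Tat and Sds of 0.773 (n = 14 libraries, given as a description). Hpd and Fah had 0.902, Fah and Gnmt 0.810 and Hpd and Hgd 0.767. By contrast, Tat and Hpd, neighbours in the route, had 0.0284. These points share 3 group means and a single scaling. With the group means removed the value for Tat and Got1 was 0.873 and for Hpd and Fah 0.888, and without GB-IL 1 they were 0.755 and 0.907. Without that liver the values for Sds with Got1 and with Tat were 0.687 and 0.519, and those for Fah with Gnmt and Hpd with Hgd 0.917 and 0.822. In DIO 4 and 5, livers without an operation, Tat, Tdo2, Sds and Got1 were each at the 2 highest levels of the group.

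**Figure D3:**
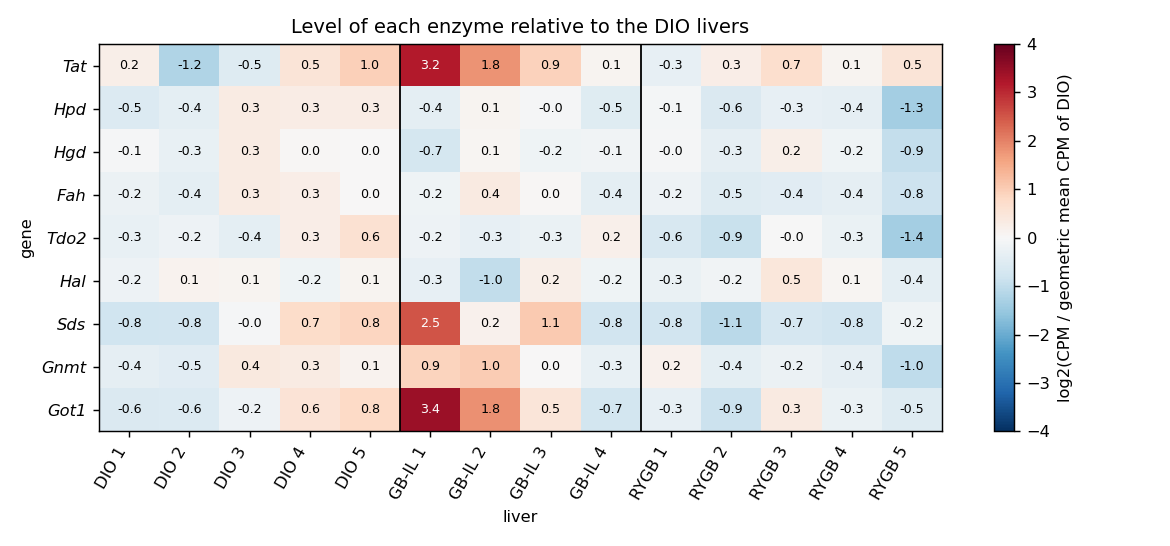
Level of the 9 enzymes in each of the 14 livers as log2 of the CPM over the geometric mean of the DIO livers (colour and number; genes in rows, livers in columns, lines between groups). Tat, Sds and Got1 are highest in GB-IL 1, at 3.2, 2.5 and 3.4, while Hpd, Hgd and Fah are at -0.4, -0.7 and -0.2 there.

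For each enzyme the gene with the most similar pattern over the 14 livers was looked up among 14243 tested genes. These were Atoh8 for Tat (Pearson r = 0.936), Wdr45 for Hpd (0.930), Dcaf11 for Hgd (0.934) and Park7 for Fah (0.954). Bsdc1 was nearest to Tdo2 (0.856), Zbtb5 to Hal (0.888) and RP23-387F1.3 to Sds (0.953). Tmem120a was nearest to Gnmt (0.959) and Prmt5 to Got1 (0.961). Being the highest of 14243 values, these correlations are descriptions of likeness in these libraries.

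Of 57 further genes of amino acid breakdown, 56 could be tested. Against DIO, 44 of them were lower and 12 higher in GB-IL livers, with a median log2 fold change of -0.46, and 45 were lower and 11 higher in RYGB livers, with a median of -0.29. Of all tested genes, 53.1% were higher in GB-IL and 51.5% in RYGB livers against DIO, with medians of 0.039 and 0.012. Only 1 of the 56 was called in GB-IL against DIO (3.26% of all genes), 0 in RYGB against DIO (0%) and 0 between the operations (0%). The unadjusted test passed 3 higher and 14 lower in GB-IL against DIO, where 23.1% of all genes passed, and 1 higher and 5 lower in RYGB against DIO, where 8.71% did. Between the operations it passed 8 higher and 2 lower (22.1% of all genes), with a median log2 fold change of -0.26. The called gene, Sdsl, is a paralogue of Sds that lies beside it at chr5:120458186-120472810 on the opposite strand, and it shares no 50-base word with Sds. Sdsl was at 7.22, 4.77, 8.09, 12.4 and 12.7 CPM in DIO, at 116, 115, 16.3 and 5.98 CPM in GB-IL and at 7.16, 7.35, 7.82, 4.92 and 20.4 CPM in RYGB livers. GB-IL 1 and 2 were far above the DIO livers, and GB-IL 4 was among them. Sdsl rose in GB-IL livers, by 2.81 ± 0.70 on the log2 scale relative to DIO (adjusted p = 0.0422, edgeR), a call that was held in 9 of 23 alternative analyses and lost without GB-IL 1 (2.35, adjusted p = 0.138) and without GB-IL 2 (2.34, adjusted p = 0.123).

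By route, 6 of 7 genes of tryptophan breakdown were lower in GB-IL and 5 of 7 in RYGB against DIO, with 0 called. For the branched-chain amino acids it was 12 of 13 in GB-IL and 13 of 13 in RYGB, again with 0 called. Per liver, the summed CPM (by total count) of the branched-chain genes was 1158, 964, 1435 and 2375 in GB-IL 1 to 4. DIO livers had 1882 to 2330 and RYGB livers 1203 to 2069 CPM. Tryptophan genes summed to 307, 562, 1043 and 1217 CPM, against 1215 to 1386 in DIO and 680 to 1288 in RYGB livers. GB-IL 1, 2 and 3 were below every DIO liver for either route. GB-IL 4 was above every DIO liver for branched-chain and within the DIO range for tryptophan genes. Methionine and cysteine breakdown, the route to which Gnmt is tied, was split in GB-IL, with 4 of 8 genes higher. Against RYGB, the genes with the smallest p after Sdsl (2.72 ± 0.69, adjusted p = 0.0853) were Ahcy, which cleaves S-adenosylhomocysteine (1.16 ± 0.35, adjusted p = 0.114), and Mat1a, which makes S-adenosylmethionine (1.18 ± 0.37, adjusted p = 0.116). In RYGB against DIO they were Prodh, the first enzyme of proline breakdown (-0.92 ± 0.29, adjusted p = 0.427), Gls2, the liver glutaminase (-0.62 ± 0.20, adjusted p = 0.440), and Acmsd, an enzyme of the kynurenine route (1.16 ± 0.45, adjusted p = 0.517). Gls2 was lower in 5 of 5 RYGB livers than in any DIO liver, as 1 of 3 of the 56 genes without overlap between these groups (3.53% of all genes had none). The fit without GB-IL 4 called 26 of the 56 against DIO, 4 higher and 22 lower, where it called 3572 of all 14492 genes. Against RYGB it called 12 of the 56, where it called 3120 of all genes, among them Sdsl, Ahcy and Mat1a (adjusted p = 0.00479, 0.0118 and 0.0128). The fit without GB-IL 1 called 0 of the 56 in either comparison. There Sdsl, Ahcy and Mat1a differed from RYGB by 2.26, 0.81 and 0.81 (adjusted p = 0.212, 0.281 and 0.289, edgeR).

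**Figure D4:**
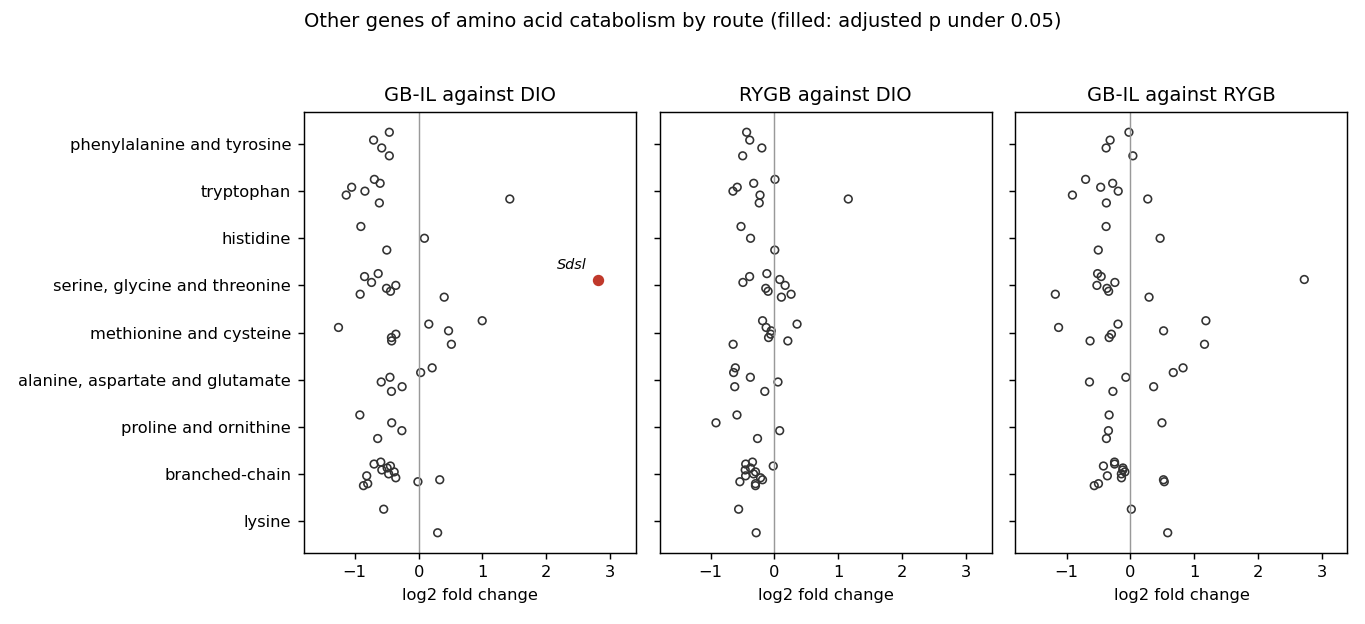
Log2 fold change of the 56 other tested genes of amino acid breakdown (circles) in the 3 comparisons, grouped by route; filled circles have an adjusted p under 0.05. Sdsl, at 2.81 in GB-IL against DIO, is the only filled point, and 44 of 56 points in that panel lie below 0.

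Lists of genes that are known to govern or accompany amino acid breakdown were read in the same fit. Of 10 regulators 0 were called in any comparison. Cebpb, a transcription factor active at gluconeogenic genes, had the smallest p in GB-IL against RYGB (1.34 ± 0.37, adjusted p = 0.0948), with 156, 127, 88.0 and 41.6 CPM in GB-IL and 26.9 to 49.9 CPM in RYGB livers. Among 6 genes of the glucocorticoid response 1 was called in GB-IL against DIO, where 3.26% of all genes were. In that comparison 3 of the 6 were higher and 3 lower, with a median log2 fold change of 0.10. The called gene was Sgk1, a kinase gene that rose in GB-IL livers (2.38 ± 0.58, adjusted p = 0.0390, edgeR). Its level was 216, 63.0, 23.2 and 16.01 CPM in GB-IL and 11.6 to 20.3 CPM in DIO livers. RYGB livers had 19.2, 44.8, 23.7, 24.0 and 33.4 CPM, so that RYGB 2 to 5 were also above every DIO liver. In the same list Tsc22d3 came first in RYGB against DIO (-0.87 ± 0.33, adjusted p = 0.510) and Per1 in GB-IL against RYGB (1.82 ± 0.58, adjusted p = 0.121). The Sgk1 call was lost without GB-IL 1 (1.15, adjusted p = 0.184) and without GB-IL 2 (2.47, adjusted p = 0.0718).

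Of the 7 tested genes that respond to a lack of amino acids, 1 was called in GB-IL against DIO, where 3.26% of all genes were. In that comparison 5 of the 7 were higher and 2 lower. Asns (asparagine synthetase) rose in GB-IL livers, by 5.04 ± 0.94 on the log2 scale relative to DIO (adjusted p = 0.0278, edgeR). Its level was 43.1, 91.1, 18.3 and 0.295 CPM in GB-IL and 0.433 to 1.67 CPM in DIO livers. GB-IL 4 was again the liver that lay apart from its group, below every DIO liver. That order rests on few counts, with 8 in GB-IL 4 and 9 to 34 in DIO livers. In RYGB livers Asns was at 4.39 to 14.4 CPM, above all DIO livers in 5 of 5 (3.05 ± 0.87, adjusted p = 0.383). It was the 1 gene of the 7 without overlap between RYGB and DIO, where 3.53% of all genes had none. Without GB-IL 1 the call was lost (4.99, adjusted p = 0.0602), and also without GB-IL 2 (4.14, adjusted p = 0.0581). Sesn2 came first in this list between the operations (1.17 ± 0.40, adjusted p = 0.138). Of 9 amino acid transporters 0 were called, the smallest p being that of Slc7a8 in GB-IL against DIO (0.71 ± 0.29, adjusted p = 0.165), Slc1a4 in RYGB against DIO (1.75 ± 0.59, adjusted p = 0.468) and Slc43a1 in GB-IL against RYGB (1.14 ± 0.39, adjusted p = 0.138). Of the genes of these lists named against RYGB, Cebpb, Per1, Sesn2 and Slc43a1 passed the threshold without GB-IL 4 (adjusted p = 0.00782, 0.0194, 0.0221 and 0.0316). Without GB-IL 1 their log2 fold changes were 1.07, 0.96, 0.50 and 1.02 (adjusted p = 0.229, 0.358, 0.415 and 0.278, edgeR).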

How the data were processed

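RNA-seq counts of 14 livers were analysed. The authors amplified the RNA, aligned the reads to mm10 with TopHat2 and counted them per gene with HTSeq, and the deposited values are whole counts without normalization. For the versions of these tools, the annotation and the strand setting nothing is given in the sources used here, and the labels name a pair of library kits without assigning them to livers. The analysis used R 4.3.3, edgeR 4.0.16, limma 3.58.1 and DESeq2 1.42.0. Genes were kept by filterByExpr by group, scaled by TMM and fitted in 1 quasi-likelihood model of all 14 livers, with Benjamini-Hochberg adjustment over 14252 genes at an FDR of 0.05. CPM per liver has no offset, and correlations used log2 CPM with a prior count of 2. Depth was 18223135 to 28656631 counts per liver. Each p-value of the main fit sets a group difference against the spread between livers within groups. That spread was estimated over all 14 livers together, although it differed between the groups. Alternatives were another scaling, filter, tool or set of livers and a replicate block.

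The 9 enzymes and all gene lists were chosen with earlier results of these data known. Named besides the 9 were, for each, its nearest gene by correlation, in the pathway list the genes called (where none was, the 3 with the smallest p), and in each other list the genes called or the 1 with the smallest p. Plbd2 and Gm15690 are named outside this rule because their exons overlap Sds. A few genes that this rule or the lists name are not reported here. Between livers of 1 group counts differed by more than sampling noise (smallest chi-square per degree of freedom 25.5), so no library was counted as a duplicate. Sequence windows were credited to RefSeq, and 24701 of 25212 identifiers matched GENCODE M21.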

Additional observations from a re-analysis of the deposited data

How the results depend on the processing

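Of 621 values (27 differences over 23 alternatives), 578 kept their direction and their side of the threshold, 21 passed it in 11 differences and 22 changed sign in 4 differences whose main value was near 0. Calls among the 9 enzymes in GB-IL against DIO numbered 2 with DESeq2, 2 with the exact test and 0 to 3 with 1 liver left out, the 3 being without GB-IL 4. In GB-IL against RYGB they numbered 3, 3 and 0 to 4, the 4 again without GB-IL 4, and in RYGB against DIO limma voom gave 4. For the other pathway genes, against a count of 1 in GB-IL against DIO, there were 3 with DESeq2, 3 with the exact test, 0 with voom, 0 with the fit of the 2 groups only, 0 with the replicate block and 0 to 26 with 1 liver left out. Leaving out any DIO liver, GB-IL 1 or 2, or RYGB 1 to 4 gave 0. In RYGB against DIO voom called 12, and in GB-IL against RYGB DESeq2 and the exact test called 3 each and the fits with 1 liver left out 0 to 12. Over the whole table the calls ranged from 0 to 3572, 0 to 1690 and 0 to 3120 in the 3 comparisons (GB-IL against DIO, RYGB against DIO, GB-IL against RYGB). The cause of these shifts was not tested. The 1690 were called by voom. For DESeq2 and the exact test the calls over the whole table are not given here, so their counts above lack a background.

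The sign changed for Fah in GB-IL against DIO with scaling to hepatocyte markers (0.042) and with 1 liver left out (0.0086 to 0.061; lowest of all such fits -0.20). It changed for Tat in RYGB against DIO with voom (-0.16) and with 1 liver left out (-0.097, -0.032 and -0.014; highest 0.38). Hal in the same comparison gave 0.016 with hepatocyte scaling, 0.037 with voom and up to 0.060 with 1 liver left out (lowest -0.18). Hgd in GB-IL against RYGB gave 0.0043 with RLE scaling, 0.020 with hepatocyte scaling, 0.0043 with DESeq2 and -0.16 to 0.13 with 1 liver left out, and Sdsl in RYGB against DIO gave -0.54 with voom, -0.16 with the replicate block and -0.40 to 0.25 with 1 liver left out.

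The replicate numbers gave no sign of pairing the livers: over 13 pairs of livers with the same number the correlation of deviations from the group means was -0.381 to 0.381 (median -0.00723), against -0.410 to 0.466 over 52 other pairs. These pairs are too few to show that a pairing is absent. With the replicate block 0 of the 9 enzymes were called in each comparison, and 1, 0 and 0 genes over the whole table. Hepatocyte scaling moved the median of all genes by at most 0.080 on the log2 scale. At these depths the lowest count of any of the 9 enzymes was 1881, so the spread between livers limits precision more than counting does.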
